A study of Mus musculus with 24 samples.

Results

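Brain endothelium of Bmal1fl/fl control mice was compared between dusk and dawn. The dusk group held the 4 libraries of ZT10 and ZT14, the hours around lights off (ZT12), and the dawn group held the 4 libraries of ZT22 and ZT2, the hours around lights on (ZT0). These 8 control libraries were chosen by their labelled genotype and time point out of 24 in the series, each made from the CD31-positive cells sorted from the brain of 1 mouse. CD31 (Pecam1) is a surface protein of the endothelial cells that line blood vessels. The controls were C57BL/6J mice with both Bmal1 alleles flanked by loxP sites and no Cre named in their labels. The mutants used for comparison were Bmal1fl/fl; Tie2cre mice, also of the C57BL/6J strain, in which Cre is driven by the Tie2 promoter, active in endothelium and in part of the blood lineage, with 8 libraries at the same 4 time points. All mice lived in a cycle of 12 h light and 12 h dark, and their age is not given in the sources used here. Each library is 1 mouse, with 2 mice per time point.

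The circadian clock is a loop of transcription. The activator BMAL1, encoded by Arntl, pairs with CLOCK or NPAS2 and turns on genes through E-boxes in their promoters, among them the Per and Cry repressors that later shut the activators down. In a second loop the REV-ERB receptors (Nr1d1 and Nr1d2) and the ROR receptors compete for sites called ROREs, through which they repress or activate Arntl and Npas2. The factors DBP, TEF and HLF pass the rhythm on through D-boxes. Timed signals from outside the cell add to this, among them the adrenal glucocorticoids, which in the nocturnal mouse peak around dusk and act through the glucocorticoid receptor on its response element, the GRE. In brain vessels the endothelium also forms the blood-brain barrier, with tight junctions, nutrient carriers and efflux pumps of the ABC family.

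The deposited values were reads per gene that the authors had normalized with PORT to similar totals, between 6253437 and 6648311 in the 8 libraries, so the original depth is no longer in them. Here they are called reads. The endothelial markers were present in every library, with a summed level of 21582 to 29070 CPM (counts scaled to a common library total) at dusk and 22644 to 30149 at dawn over 20 genes. Markers of other cell types were present too, at 10613 to 13264 CPM at dusk and 9163 to 13396 at dawn, with 0 of 79 such genes that passed the filter called by edgeR and 2 higher and 3 lower at an unadjusted p under 0.05. The lymphocyte marker Ms4a1, the neutrophil marker Ly6g and the killer cell marker Nkg7 were at 0 in all 8 libraries. They were the only 3 such genes among 12 leukocyte and platelet markers. These 12 summed to 67.9 to 311 CPM at dusk and 41.6 to 140 at dawn. The share of reads on mitochondrially encoded genes reached 17.4% and 15.3% at ZT14, against 7.27% and 7.07% at ZT10, with 7.07% and 11.9% at ZT22 and 11.6% and 9.58% at ZT2. The ZT14 libraries thus stood apart, while the groups overlapped (two-sided exact permutation test over 70 arrangements, p = 0.514, where the smallest possible p is 0.0286). At each of the 4 time points replicate 1 had a high level of Xist, the RNA of the inactive X chromosome (884 to 1419 CPM), and under 1 CPM of Y-linked genes, and replicate 2 the reverse (at most 14.2 CPM of Xist), so both groups held 2 libraries of each kind. The library barcode carried 1 of 2 i5 indexes, with ZT2 and ZT10 on index 1 and ZT14 and ZT22 on index 2, so each group held both.

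Of the 15493 genes that passed the filter on low reads, 50 (0.323%) differed between dusk and dawn at an adjusted p under 0.05 in edgeR's quasi-likelihood test. Of these 40 (0.258% of all genes tested) were higher at dusk and 10 (0.0645%) were lower. At an unadjusted p under 0.05 there were 985 genes (6.36%), with 513 higher and 472 lower at dusk. The log2 difference of the 40 higher genes lay between 0.74 and 3.84 (median 1.22), and that of the 10 lower genes between -4.89 and -0.79 (median -1.77), while the median over all genes tested was -0.02. In all 50 the 4 dusk libraries lay entirely above or below the 4 dawn libraries, which was so for 695 of all genes tested (4.49%). Without the ZT14 libraries, which leaves 2 dusk libraries, 6 genes passed, namely Zbtb16, Arntl, Per2, Dbp, Tef and Fam124b. The genes with the smallest p-values were clock genes and their outputs, the transcription factor Zbtb16, and Mmp15, Ccdc85a and Fam124b.

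**Figure D1:**
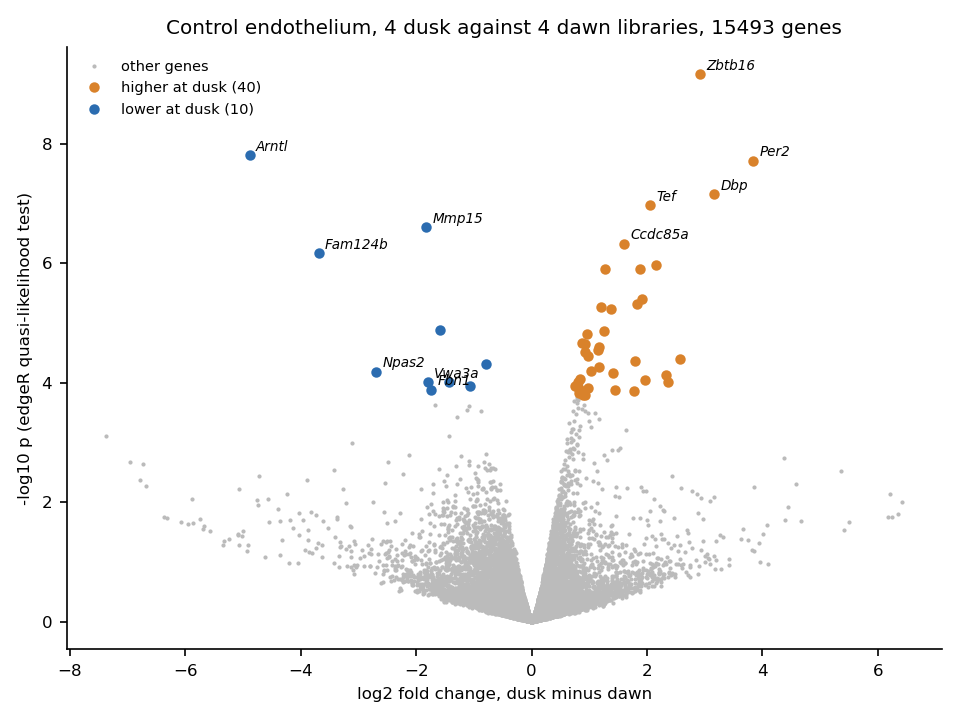
Each point is 1 of 15493 genes, with the log2 fold change between 4 dusk and 4 dawn control libraries (x axis, dusk minus dawn) and the -log10 of the unadjusted p of edgeR's quasi-likelihood test (y axis). The 40 genes called higher at dusk (orange) reach a log2 difference of 3.84 and the 10 called lower (blue) reach -4.89; grey genes with larger differences did not pass the test.

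The promoters of the called genes were searched for the sites named above, in windows of 300 bases from RefSeq on GRCm38.p6, 250 bases before to 50 after the annotated start, on both strands. Windows were held for 33 of the 40 genes higher at dusk, for 7 of the 10 lower, and for 10546 of all genes tested. The E-box CACGTG was in the windows of 6 of the 33 (Ciart, Fkbp5, Net1, Per1, Tef and Tspan4) and of 0 of the 7, against 11.42% of all genes. The D-box TTATGTAA or TTACGTAA was in 1 of the 33 (Per3), against 0.84% of all genes. The RORE, searched as AA, any base, T and then AGGTCA or GGGTCA, was in 1 of the 7 (Arntl), against 0.33%. The GRE, searched as G, any base, ACA, any 3 bases, TGT, any base and C, was in 3 of the 33 (Map3k6, Kcna5 and Fam107a), against 0.38%. The cAMP response element TGACGTCA was in 3 of the 33 (Abcg2, Hlf and Tmc7), against 3.6%. A match shows the letters only, not binding, and a window without a match says nothing of sites elsewhere. No base of the windows printed here belongs to matches of different motifs.

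The windows of 7 genes are shown because each carries one of these sites and belongs to a gene called between dusk and dawn. They run 5′ to 3′ on the strand of the gene, with the site in capitals. Ciart has 3 E-boxes, 116, 58 and 44 bases before its start, and Tef has 1 in this window, 127 bases before. Per3 has 2 D-boxes, 205 and 158 bases before its start. In Arntl the RORE begins 27 bases after the start of this transcript. The GREs begin 181 bases before the start of Map3k6, 59 before that of Kcna5 and 118 before that of Fam107a.
Ciart (chr3:95882179-95882478, minus strand): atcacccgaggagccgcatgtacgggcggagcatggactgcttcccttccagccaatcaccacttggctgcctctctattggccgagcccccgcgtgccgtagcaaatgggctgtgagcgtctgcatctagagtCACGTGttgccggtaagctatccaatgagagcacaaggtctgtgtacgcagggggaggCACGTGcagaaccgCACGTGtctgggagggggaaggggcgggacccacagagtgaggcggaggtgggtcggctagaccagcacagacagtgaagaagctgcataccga
Tef (chr15:81802423-81802722, plus strand): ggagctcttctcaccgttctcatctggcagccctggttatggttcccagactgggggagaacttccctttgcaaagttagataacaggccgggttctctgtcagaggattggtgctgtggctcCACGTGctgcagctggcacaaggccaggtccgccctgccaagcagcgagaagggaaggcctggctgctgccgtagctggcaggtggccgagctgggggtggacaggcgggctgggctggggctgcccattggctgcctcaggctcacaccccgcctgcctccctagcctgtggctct
Per3 (chr4:151044616-151044915, minus strand): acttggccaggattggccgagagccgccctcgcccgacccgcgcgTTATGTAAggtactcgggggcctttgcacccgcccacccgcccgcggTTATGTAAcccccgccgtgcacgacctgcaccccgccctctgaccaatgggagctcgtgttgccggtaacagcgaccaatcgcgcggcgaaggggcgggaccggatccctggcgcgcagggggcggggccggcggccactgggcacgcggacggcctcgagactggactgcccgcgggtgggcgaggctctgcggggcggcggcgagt
Arntl (chr7:113207261-113207560, plus strand): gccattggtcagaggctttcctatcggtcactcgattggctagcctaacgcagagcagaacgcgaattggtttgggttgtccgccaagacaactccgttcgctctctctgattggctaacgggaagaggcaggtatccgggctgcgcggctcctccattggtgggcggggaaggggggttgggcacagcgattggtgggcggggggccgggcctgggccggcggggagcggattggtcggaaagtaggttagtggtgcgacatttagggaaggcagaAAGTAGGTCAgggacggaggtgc
Map3k6 (chr4:133240568-133240867, plus strand): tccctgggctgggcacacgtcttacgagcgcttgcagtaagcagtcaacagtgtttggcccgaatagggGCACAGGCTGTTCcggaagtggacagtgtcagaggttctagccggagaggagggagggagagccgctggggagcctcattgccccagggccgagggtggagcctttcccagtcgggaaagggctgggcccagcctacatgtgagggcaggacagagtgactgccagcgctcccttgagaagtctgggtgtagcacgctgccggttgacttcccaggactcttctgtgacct
Kcna5 (chr6:126535506-126535805, minus strand): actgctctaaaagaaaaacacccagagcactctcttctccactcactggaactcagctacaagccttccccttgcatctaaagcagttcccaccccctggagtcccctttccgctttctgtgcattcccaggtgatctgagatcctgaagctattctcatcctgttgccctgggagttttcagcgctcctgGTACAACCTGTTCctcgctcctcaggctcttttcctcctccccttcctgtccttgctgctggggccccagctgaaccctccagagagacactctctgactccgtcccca
Fam107a (chr14:8309730-8310029, minus strand): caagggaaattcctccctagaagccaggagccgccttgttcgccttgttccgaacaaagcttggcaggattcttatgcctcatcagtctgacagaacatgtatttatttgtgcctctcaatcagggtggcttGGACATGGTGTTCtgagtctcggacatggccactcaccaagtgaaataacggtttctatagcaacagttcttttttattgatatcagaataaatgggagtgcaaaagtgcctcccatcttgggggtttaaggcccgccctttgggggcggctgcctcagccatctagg

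In what follows, 4 values of a group are given in the order ZT10 replicates 1 and 2 and ZT14 replicates 1 and 2 for dusk, and ZT22 and then ZT2 for dawn. Of the clock's activators, Arntl and Npas2 were low at dusk. Arntl (ENSMUSG00000055116, chr7:113207465-113314126 on GRCm38) had 1 and 22 reads at ZT10 and 15 and 13 at ZT14, against 468 and 234 at ZT22 and 439 and 466 at ZT2. The groups were far apart, with a dawn mean of 402 ± 113 and a dusk mean of 12.8 ± 8.7 (SD, n = 4), and the log2 difference was -4.89 ± 0.48 (SE, adjusted p = 9.77e-05, edgeR). This was the strongest difference among the called genes in either direction. Npas2, the activator that can stand in for CLOCK, had 25, 7, 14 and 12 reads in the dusk libraries and 99, 138, 96 and 62 in the dawn libraries, also without overlap, a log2 difference of -2.69 ± 0.51 (adjusted p = 0.0335, edgeR). Clock itself, the usual partner of BMAL1, had 785 to 1012 reads at dusk and 938 to 1142 at dawn, so the groups overlapped, and its log2 difference of -0.14 ± 0.16 did not pass (adjusted p = 0.976, edgeR). Of the 3 activators, 2 were called lower, against 0.0645% of all genes tested. In the 8 fits that left out 1 library, Arntl passed in 8 and Npas2 in 2.

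Part of the list of repressors was high at dusk. Of the 10 genes of this list all had positive differences, with a median of 1.26 on the log2 scale against -0.02 over all genes tested, and 5 were called higher, against 0.258% of all genes. Per2, whose protein inhibits BMAL1 and CLOCK, had 657 and 631 reads at ZT10 and 822 and 1169 at ZT14, against 88 and 95 at ZT22 and 36 and 22 at ZT2. Every dusk library held several times the reads of every dawn library, and the log2 difference of 3.84 ± 0.38 (adjusted p = 9.77e-05, edgeR) was the highest of the called genes. Per2 also differed between the dawn time points, by -1.68 ± 0.32 for ZT2 minus ZT22, which did not pass (adjusted p = 0.261, edgeR). Per3, a less essential member of the family, had 677, 507, 450 and 856 reads at dusk and 115, 112, 204 and 260 at dawn. The groups did not overlap, and the lowest values were the ZT22 pair (log2 difference 1.92 ± 0.28, adjusted p = 0.00501, edgeR). Per1, which answers both to the clock and to glucocorticoids, had 1632, 1211, 978 and 1394 reads at dusk and 899, 326, 376 and 437 at dawn. Its highest dawn library, ZT22 replicate 1, came close to the lowest dusk library, and the log2 difference was 1.41 ± 0.27 (adjusted p = 0.0337, edgeR).

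Both REV-ERB genes, repressors of Arntl and Npas2, had positive differences, of which that of Nr1d2 passed. Nr1d2 had 883, 1067, 872 and 910 reads at dusk, against 100 and 158 at ZT22 and 281 and 346 at ZT2. The groups did not overlap, with a log2 difference of 2.15 ± 0.29 (adjusted p = 0.00178, edgeR), and the ZT22 pair was the lowest. Nr1d1 had 497 and 433 reads at ZT10 and 118 and 330 at ZT14, against 38 and 24 at ZT22 and 322 and 281 at ZT2. The ZT2 libraries lay inside the range of ZT14, the groups overlapped, and the difference of 1.11 ± 0.60 did not pass (adjusted p = 0.846, edgeR). Over the 25 settings of the analysis that were run it lay between 0.66 and 2.95, and it passed in 3 of them, without the filter on low reads, with time point means and within index 2. Among the 4 time points used, the means of both genes were highest at ZT10 and lowest at ZT22. The 2 genes were not tested against each other. Nr1d1 was in turn the 1 gene (0.00645% of all genes tested) called between the dawn time points, higher at ZT2 than at ZT22 by 3.25 ± 0.46 (adjusted p = 0.0292, edgeR). Exons of Nr1d1 overlap those of Thra on the other strand.

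Ciart (also Chrono), a repressor with 3 E-boxes in the window above, had 224, 176, 70 and 132 reads at dusk and 18, 27, 13 and 46 at dawn. The ZT10 pair was the highest and the groups were apart (log2 difference 2.58 ± 0.47, adjusted p = 0.0252, edgeR). The cryptochromes, partners of the PER proteins, were higher at dusk in their means but did not pass. Cry1 had 326, 348, 389 and 299 reads at dusk and 236, 304, 188 and 130 at dawn, with 1 dawn library inside the dusk range (0.74 ± 0.25, adjusted p = 0.552, edgeR). Cry2 differed by 0.61 ± 0.24 (adjusted p = 0.66, edgeR). The E-box repressors Bhlhe40 and Bhlhe41 differed by 0.34 ± 0.25 and 0.12 ± 0.39, with overlapping groups.

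The output factors held 4 called genes among 10, all higher at dusk, and a median of 0.60, against 0.258% called higher and a median of -0.02 over all genes tested. Dbp, a PAR bZIP activator of D-box genes, had 736 and 718 reads at ZT10, 215 and 396 at ZT14, 60 and 70 at ZT22 and 71 and 38 at ZT2. The ZT10 pair stood highest, the ZT14 pair lay between it and the dawn libraries, and the log2 difference was 3.16 ± 0.35 (adjusted p = 0.000265, edgeR). Its paralogue Tef had 1130, 1314, 685 and 1007 reads at dusk and 289, 165, 346 and 245 at dawn, a difference of 2.05 ± 0.23 (adjusted p = 0.000328, edgeR). Hlf, the third paralogue, had 439, 427, 464 and 503 reads at dusk and 165, 190, 305 and 198 at dawn, with dusk values close to each other (1.17 ± 0.22, adjusted p = 0.0301, edgeR). Tspan4, a tetraspanin, differed by 1.45 ± 0.29 (adjusted p = 0.0441, edgeR). Dbp and Tef passed in all 8 fits that left out 1 library, Hlf in 2 and Tspan4 in 0. Of the others, Nfil3, the repressor that competes for D-boxes, had 67, 31, 19 and 8 reads at dusk and 127, 52, 50 and 85 at dawn, with overlap (-1.29 ± 0.58, adjusted p = 0.76, edgeR). Leo1, a subunit of the PAF1 complex, differed by -1.30 ± 0.29 with groups that did not overlap but did not pass (adjusted p = 0.0849, edgeR).

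**Figure D2:**
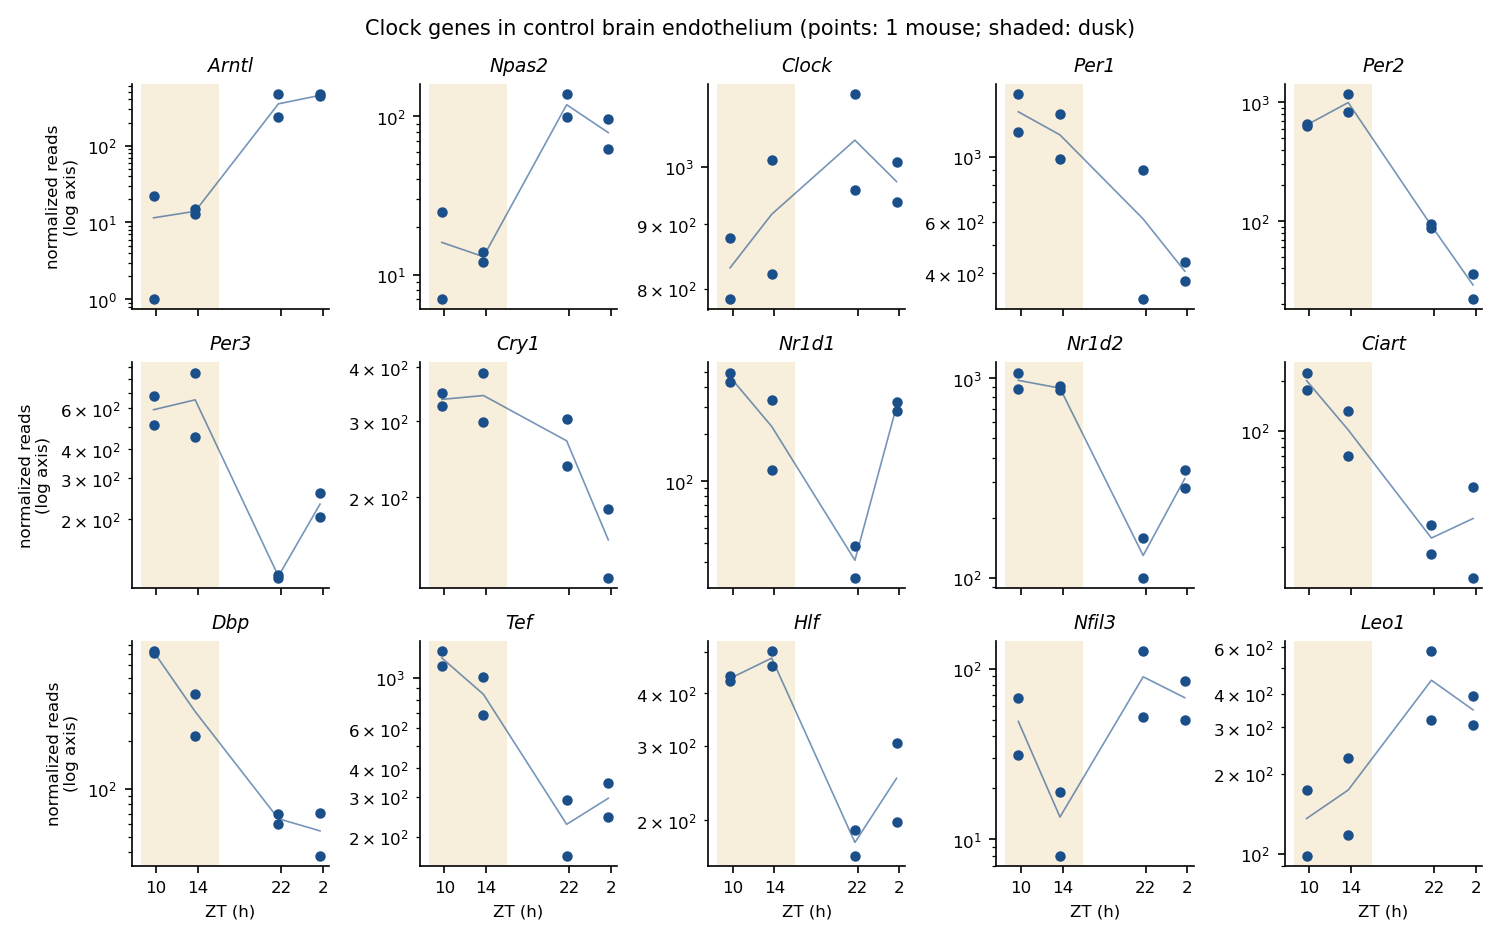
Normalized reads (y axis, log scale, a separate scale in each panel) of 15 genes of the clock lists in the 8 control libraries. The x axis is the time point (ZT in hours, ZT2 drawn after ZT22). Each point is 1 mouse, lines run through the means of 2 mice, and the dusk time points are shaded. Leo1, on the list of output factors, encodes a subunit of the PAF1 complex. Arntl and Npas2 sit low at dusk, the Per genes, Nr1d2, Ciart, Dbp, Tef and Hlf sit high, and Nr1d1 is low at ZT22 alone.

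Genes that respond to glucocorticoids formed the other large group. Of 26 genes of this list 7 were called higher at dusk and 0 lower, and 20 of 26 had positive differences with a median of 0.48, against 0.258% called higher and a median of -0.02 over all genes tested. Without the ZT14 libraries 1 of them passed, Zbtb16. The summed level of the list was 3025 to 3216 CPM at dusk, 2761 in ZT22 replicate 1 and 1653 to 1832 in the other dawn libraries. Without ZT22 replicate 1, Zbtb16, Tsc22d3, Per1 and Map3k6 still passed and Fkbp5, Sult1a1 and Klf9 did not. Zbtb16 and Tsc22d3 alone of the 7 passed without ZT2 replicate 1, without ZT14 replicate 1 or without ZT14 replicate 2. Per1 belongs to this list as well as to the clock. Of the 7, Map3k6 had a GRE in its window, while the windows held for Tsc22d3, Fkbp5, Per1, Sult1a1 and Klf9 had none. Zbtb16 (ENSMUSG00000066687, chr9:48654297-48836222 on GRCm38), the zinc finger transcription factor PLZF, had the smallest p of all genes. It had 1352 and 1381 reads at ZT10 and 1560 and 1166 at ZT14, against 182 and 269 at ZT22 and 112 and 198 at ZT2. No dawn library came near the dusk range, and the log2 difference was 2.91 ± 0.23 (adjusted p = 1.06e-05, edgeR). Tsc22d3, which encodes the glucocorticoid-induced leucine zipper GILZ, had 1462, 2001, 1948 and 1739 reads at dusk and 1008, 603, 813 and 852 at dawn, again apart (1.20 ± 0.18, adjusted p = 0.00584, edgeR). Fkbp5, a co-chaperone that lowers the hormone affinity of the glucocorticoid receptor, had 507, 346, 299 and 255 reads at dusk and 126, 143, 81 and 27 at dawn. The difference was 1.96 ± 0.38 (adjusted p = 0.0397, edgeR), with the ZT10 pair the highest and the ZT2 pair the lowest.

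Map3k6, a kinase of the stress-activated pathways with a GRE in its window, had 442, 228, 537 and 503 reads at dusk and 162, 95, 84 and 18 at dawn, with ZT10 replicate 2 well below the other dusk libraries (2.33 ± 0.44, adjusted p = 0.0354, edgeR). Sult1a1, a sulfotransferase of phenols and drugs, had 338, 343, 341 and 402 reads at dusk and 118, 186, 77 and 49 at dawn, without overlap (1.80 ± 0.33, adjusted p = 0.0254, edgeR). Klf9, a Krüppel-like repressor, had 937, 761, 792 and 733 reads at dusk and 511, 533, 424 and 461 at dawn. The gap was small but free of overlap (0.81 ± 0.16, adjusted p = 0.0429, edgeR). Of the list's other members Galnt15 and Ddit4 were higher in their means without passing (1.00 ± 0.23 with adjusted p = 0.0956, and 0.84 ± 0.26 with adjusted p = 0.425, edgeR). Lcn2 owed its difference of 2.86 ± 0.94 to 1 library, with 284 reads in ZT10 replicate 1 and 6 to 18 in the other 7. Pdk4, a brake on glucose oxidation, went the other way with 51 to 125 reads at dusk and 122 to 185 at dawn (-0.92 ± 0.35, adjusted p = 0.64, edgeR).

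The other genes called higher at dusk came from several classes. Among signalling and cytoskeletal genes, Ccdc85a had 1007, 1367, 1246 and 1162 reads at dusk and 392, 584, 386 and 302 at dawn, clear of each other (1.59 ± 0.20, adjusted p = 0.00103, edgeR). Ctgf, a secreted matricellular protein and a target of YAP, had 564, 564, 772 and 756 reads at dusk and 281, 128, 142 and 207 at dawn (1.88 ± 0.26, adjusted p = 0.00178, edgeR). It was the 1 called gene among 31 immediate-early genes, whose median was 0.18, against 0.258% called higher over all genes. Their summed level was 17770 CPM in ZT22 replicate 1, against 5833 to 7905 in the other dawn libraries and 9347 to 13255 at dusk. With this level as a covariate 34 of the 50 calls held, and Ciart, Fkbp5, Kcna5 and Thra were among those lost. Coro2a, an actin-binding coronin, Net1, an exchange factor for RhoA, and Tbc1d4, a Rab GTPase-activating protein downstream of AKT, differed by 1.82 ± 0.27, 1.25 ± 0.21 and 1.15 ± 0.20. Pik3c2a, a class II phosphoinositide 3-kinase, Prex2, an exchange factor for Rac, and Pik3ip1, an inhibitor of phosphoinositide 3-kinase, differed by 0.96 ± 0.16, 0.74 ± 0.15 and 0.89 ± 0.18. Cd200, a surface glycoprotein that restrains myeloid cells, had 1274, 1281, 1421 and 1491 reads at dusk and 698, 438, 589 and 647 at dawn, the dusk values within a narrow band (1.28 ± 0.17, adjusted p = 0.00178, edgeR).

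Among channels and enzymes, Kcna5, a voltage-gated potassium channel with a GRE in its window, had 165, 166, 85 and 107 reads at dusk and 17, 52, 22 and 14 at dawn. The ZT10 pair was highest and the groups did not overlap (2.37 ± 0.47, adjusted p = 0.0397, edgeR). Tmc7, of the transmembrane channel-like family, differed by 1.37 ± 0.21. Gatm, the first enzyme of creatine synthesis, Xdh, the xanthine dehydrogenase of purine breakdown, and Fmo2, a flavin monooxygenase, differed by 0.88 ± 0.15, 0.97 ± 0.17 and 1.77 ± 0.36. In Fmo2 the ZT14 libraries (552 and 1159 reads) lay above those of ZT10 (321 and 414), and the dawn libraries held 117 to 268. Bcl2l1, the anti-apoptotic BCL-XL, had 1854, 2492, 2344 and 2502 reads at dusk and 1335, 1344, 1079 and 1344 at dawn (0.92 ± 0.16, adjusted p = 0.0201, edgeR). Fam107a, an actin regulator induced by stress hormones that carries a GRE in its window, had 2227, 2246, 2616 and 2798 reads at dusk and 1570, 1599, 1467 and 1158 at dawn, without overlap (0.85 ± 0.16, adjusted p = 0.0397, edgeR). It was not on the glucocorticoid list. Timp3, an inhibitor of metalloproteinases held in the matrix, was among the most abundant of the called genes with 5790 to 8564 reads at dusk and 3362 to 5129 at dawn, and it passed narrowly (0.92 ± 0.19, adjusted p = 0.0496, edgeR). The remaining genes called higher, Ism1, Phactr4, Paqr5, Ttll7, Trp53inp1, Mal and Rapgef6, differed by 0.79 to 1.17.

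The genes called lower at dusk besides Arntl and Npas2 were 8, of which 7 are described. Mmp15 (chr8:95352268-95375080), a membrane-type matrix metalloproteinase, had 198, 225, 216 and 207 reads at dusk, within a narrow band, against 543 and 618 at ZT22 and 1074 and 939 at ZT2. The ZT2 pair lay above the ZT22 pair, and the dusk-dawn difference was -1.83 ± 0.22 (adjusted p = 0.000629, edgeR). Fam124b (chr1:80198706-80218473) had 18 and 18 reads at ZT10 and 7 and 4 at ZT14, against 195, 135, 174 and 131 at dawn, a 12.9-fold higher fitted level at dawn (log2 difference -3.69 ± 0.48, adjusted p = 0.00129, edgeR). Thra, the thyroid hormone receptor alpha gene, had 666 to 794 reads at dusk and 1274 to 1437 at dawn, 2 tight and separate bands (-0.79 ± 0.15, adjusted p = 0.0278, edgeR). Lamb1, a laminin chain of the vascular basement membrane, and Fbn1, the fibrillin of elastic microfibrils, differed by -1.08 ± 0.21 and -1.74 ± 0.35. Tspan18, an endothelial tetraspanin, and Vwa3a differed by -1.43 ± 0.28 and -1.80 ± 0.35.

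Just inside the threshold were Timp3 and Pik3ip1 (adjusted p = 0.0496 each, edgeR), and just outside it were Fzd4 and Slc7a5 (adjusted p = 0.0567 each). Fzd4, the Norrin receptor of the barrier's Wnt pathway, had 1851 to 2561 reads at dusk and 1178 to 1708 at dawn without overlap (0.81 ± 0.17). Slc7a5, the large neutral amino acid transporter LAT1, had 7941, 9401, 7384 and 8243 reads at dusk and 4172, 5073, 5682 and 5790 at dawn, also without overlap (0.74 ± 0.16).

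Genes of the barrier are read against all genes tested, of which 0.323% were called, 0.258% were called higher at dusk, and 513 of 15493 were higher and 472 lower at an unadjusted p under 0.05. Of 37 ABC transporters tested, Abcg2, the efflux pump BCRP, was the 1 called, with 2436, 3147, 3194 and 3307 reads at dusk and 1771, 1980, 1875 and 1744 at dawn, a log2 difference of 0.79 ± 0.16 (adjusted p = 0.0423, edgeR), and the list's median was -0.02. The call was lost with the replicate block, without scaling beyond PORT, with the level of other cell types' markers, of immediate-early genes or of Y-linked genes as a covariate, and in all but 1 of the 8 fits that left out a library, while the difference stayed between 0.62 and 0.90 in all 25 settings run. Abcb1a, the P-glycoprotein gene, had 10074 to 12405 reads at dusk and 9215 to 11081 at dawn with overlap, and its difference of 0.25 ± 0.15 did not pass (adjusted p = 0.878, edgeR). Of 30 solute carriers of the barrier 0 were called, with 4 higher and 3 lower at an unadjusted p under 0.05. Slc2a1, the glucose transporter GLUT1, had 11515, 16048, 14803 and 19255 reads at dusk and 7996, 8619, 9952 and 11448 at dawn, just apart (0.77 ± 0.19, adjusted p = 0.14, edgeR). Slc16a1, the lactate and ketone body carrier MCT1, had 1307 to 1946 reads at dusk, 1956 and 2000 at ZT22 and 3466 and 3143 at ZT2, so the groups did not overlap and the ZT2 pair was highest (-0.71 ± 0.20, adjusted p = 0.32, edgeR).

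Of 21 tight junction genes 0 passed, against 0.323% of all genes, with 2 higher and 2 lower at an unadjusted p under 0.05, against 6.36% of all genes in either direction. Cldn5, the main claudin of the barrier, had 2385, 4321, 3277 and 4406 reads at dusk and 4529, 5409, 7427 and 7229 at dawn, all dusk libraries below all dawn libraries (-0.70 ± 0.21, adjusted p = 0.403, edgeR). Ocln, the occludin gene, differed by 0.29 ± 0.17 with overlap. Cgn had the most negative difference of this list, -3.43, and a smaller p than Cldn5, and it did not pass (adjusted p = 0.322, edgeR). Of 18 magnesium channels and transporters 0 passed, with 1 higher and 1 lower at an unadjusted p under 0.05. Among them Cnnm2 had the smallest p (adjusted p = 0.393, edgeR). Trpm7, a magnesium-permeable channel with a kinase domain, had 1173, 971, 1213 and 907 reads at dusk and 770, 954, 763 and 927 at dawn, with 1 dusk library inside the dawn range (0.39 ± 0.16, adjusted p = 0.695, edgeR).

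Other lists gave few or no calls. The 20 arterial genes held 0 called and 6 lower at dusk at an unadjusted p under 0.05, with 19 of 20 differences negative and a median of -0.31, against 513 higher and 472 lower at that p, 8118 negative and a median of -0.02 among all 15493 genes tested. Unc5b, a netrin receptor of arterial and tip cells, had 514 to 654 reads at dusk and 705 to 1314 at dawn without overlap (-0.63 ± 0.20, adjusted p = 0.434, edgeR). The heat shock list held 0 called of 26, with 5 higher at an unadjusted p under 0.05, and a median of 0.25. In its member Hspa8, the constitutive chaperone HSC70, the ZT14 pair (13283 and 11540 reads) was highest and the ZT2 pair (6489 and 6542) lowest, and ZT10 and ZT22 overlapped. The 93 nuclear genes of the respiratory chain held 0 called and 2 at an unadjusted p under 0.05, with 74 negative differences and a median of -0.21, and the 13 mitochondrially encoded genes held 0 called, 0 at an unadjusted p under 0.05 and a median of 0.38. The calls in cholesterol synthesis, Notch signalling, ribosome biogenesis, endoplasmic reticulum chaperones, the proteasome and the cell cycle were 0 as well in edgeR's test, with 0, 1, 1, 3, 1 and 3 genes of these lists at an unadjusted p under 0.05.

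Since the index differs in full between the time points of a side, each index was looked at alone. Index 1 compares ZT10 with ZT2 and index 2 compares ZT14 with ZT22, each with 2 mice against 2. The 50 genes were called on these same libraries and their dusk and dawn values do not overlap, which fixes the direction in each index, so their values here are a description. At an adjusted p under 0.05, 18 genes passed in index 1, of which 13 were among the 50, and 17 passed in index 2, of which 15 were, with 8 in both. Zbtb16 differed by 3.17 ± 0.31 in index 1 and 2.71 ± 0.30 in index 2, and Arntl by -5.24 ± 0.69 and -4.53 ± 0.66. Dbp differed more between ZT10 and ZT2 (3.77 ± 0.39) than between ZT14 and ZT22 (2.33 ± 0.37) in these values, and Nr1d2 less (1.67 ± 0.27 and 2.90 ± 0.28), which was not tested as a difference.

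**Figure D3:**
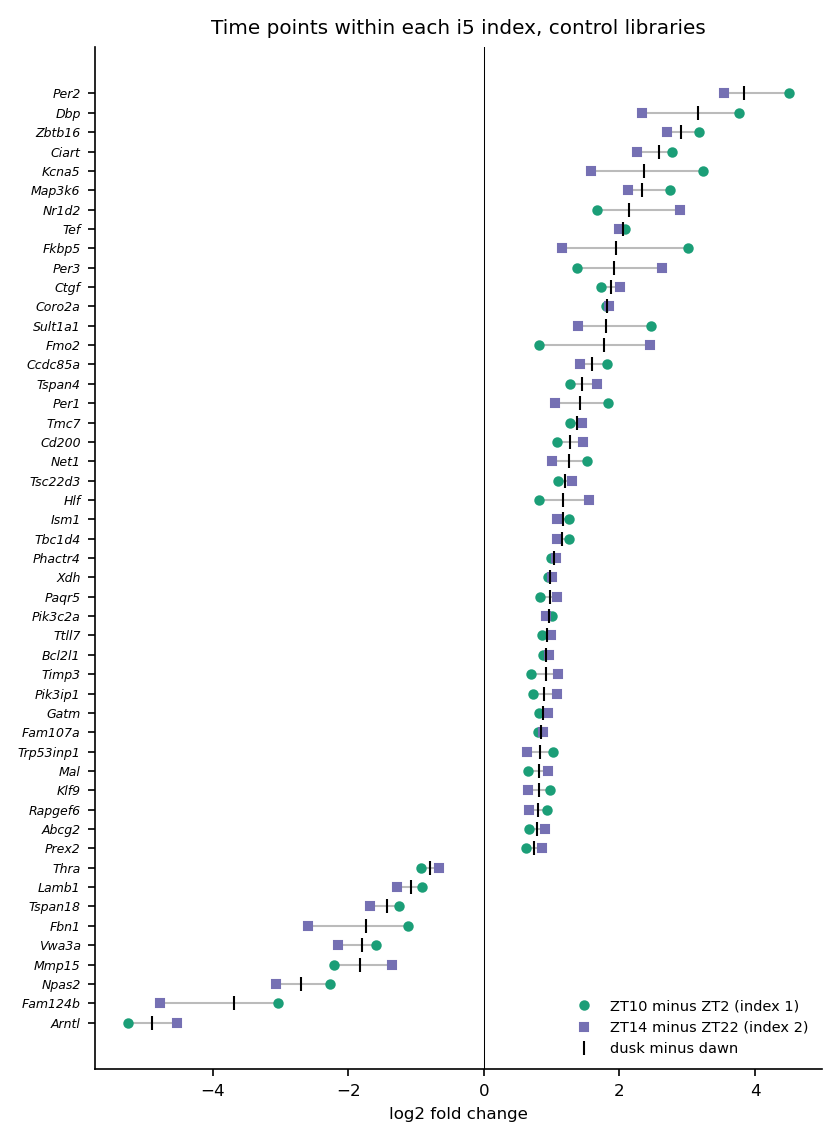
Log2 fold changes (x axis) of all but 1 of the 50 called genes (y axis) in control libraries, from ZT10 minus ZT2 on i5 index 1 (green circles), ZT14 minus ZT22 on index 2 (purple squares) and all dusk minus dawn libraries (black ticks). The marks of Fam124b lie far apart and those of Tef close together, and the choice of genes without overlap between dusk and dawn fixes the side of 0.

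Within dusk, 23 genes (0.148%) differed between ZT14 and ZT10 at an adjusted p under 0.05 in edgeR's test, 21 of them higher at ZT14, and 0 of the 50 called genes were among them. The genes with the smallest p were Mobp and Bcas1, of myelinating oligodendrocytes, the neuronal kinesin Kif5c, Plekhb1 and the mitochondrial mt-Nd3. Mobp had 1953 and 1980 reads at ZT10 and 4264 and 5862 at ZT14, and 3072 to 4270 at dawn. Ccl3, a chemokine of myeloid cells, and Tgfbi were lower at ZT14, Ccl3 with 513 and 298 reads at ZT10 and 55 and 45 at ZT14. The ZT14 libraries also had the higher mitochondrial share, a sum that includes mt-Nd3. Their summed oligodendrocyte marker level, which includes Mobp, was 2002 and 3116 CPM, against 1111 and 1005 at ZT10 and 1412 to 2070 at dawn. So these sums are not separate evidence from Mobp and mt-Nd3. Time point and index cannot be told apart here, and in sorted bulk cells fewer cells of a type and less RNA per cell cannot be told apart either.

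The same contrast in mutant mice shows which differences were also present without Bmal1 in Tie2-Cre cells. Arntl had 120, 169, 251 and 354 reads at dusk and 242, 205, 243 and 259 at dawn in mutants, a log2 difference of -0.07 ± 0.27. The gene-level reads include exons outside the deleted part, so they do not check the deletion. All 8 mutant libraries carried index 2, and Xist was above 100 CPM in 3 of the 4 dusk and 2 of the 4 dawn libraries. In mutants 20 genes (0.129%) were called, all higher at dusk. Of them 16 were among the 40 genes higher at dusk in controls, which is 32% of the control calls and 80% of the mutant calls. Of the 40, 38 had the same direction in mutants and 32 an unadjusted p under 0.05, against 3.26% of all genes tested for that direction, and their median difference was 0.94. Of the 10 genes lower at dusk in controls, 4 had the same direction in mutants and 1 an unadjusted p under 0.05, against 2.6% of all genes tested, and 0 were called. Their median difference in mutants was 0.08.

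Of the 26 glucocorticoid-responsive genes 6 were called in both genotypes, namely Zbtb16, Tsc22d3, Per1, Fkbp5, Sult1a1 and Map3k6. Klf9 passed in controls and not in mutants (adjusted p = 0.694 in mutants, edgeR) and Galnt15 in mutants and not in controls, and their genotype differences did not pass. So 7 passed in mutants, against 0.129% of all genes tested. These mutant calls rest on few mice, since 0 genes passed in mutants without ZT2 replicate 1, without ZT2 replicate 2 or without ZT14 replicate 2. In these fits 659, 826 and 754 genes had an unadjusted p under 0.05 in edgeR's test. Map3k6 also lost its mutant call with the replicate block, where 18 genes passed, and with the Y-linked level as a covariate, where 17 passed. Zbtb16 had 959, 533, 1122 and 1545 reads at dusk and 317, 73, 70 and 63 at dawn in mutants, apart as in controls (3.01 ± 0.45, adjusted p = 0.0119, edgeR), and its control minus mutant difference of -0.10 ± 0.55 did not pass (adjusted p = 0.998, edgeR). Per1 had 1331, 1143, 1006 and 1242 reads at dusk and 595, 651, 381 and 453 at dawn in mutants (1.20 ± 0.17, adjusted p = 0.0119, edgeR). Kcna5, outside the list, differed by 2.87 ± 0.44 in mutants (adjusted p = 0.0119, edgeR), and Fam107a by 0.99 ± 0.15 (adjusted p = 0.0119, edgeR). Slc7a5 and Fzd4, which just missed the threshold in controls, passed in mutants (0.91 ± 0.14 and 0.89 ± 0.14, adjusted p = 0.013 each, edgeR).

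The test of the genotype difference in this contrast called 4 genes (0.0258%), Arntl, Mmp15, Fam124b and Npas2, all of them lower at dusk in controls. At an unadjusted p under 0.05 it held 10 of the 10 genes lower at dusk and 13 of the 40 higher. These genes were chosen for their control difference, which is part of this test, so the 5.86% of all genes tested (908) is no yardstick for them. Mmp15 had 840 to 1210 reads in all 8 mutant libraries (log2 difference 0.10 ± 0.15), near the 1074 and 939 reads of the control ZT2 libraries. Its control minus mutant difference was -1.94 ± 0.26 (adjusted p = 0.00128, edgeR). Fam124b had 147 to 280 reads in every mutant library (-0.41 ± 0.22), and its control minus mutant difference was -3.28 ± 0.46 (adjusted p = 0.00152, edgeR). Npas2 had 127 to 276 reads in mutants (0.14 ± 0.24), where the control dawn libraries had 62 to 138, with a control minus mutant difference of -2.84 ± 0.48 (adjusted p = 0.017, edgeR).

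The dusk-high clock genes were less uniform. Per2 had 211, 121, 381 and 327 reads at dusk and 114, 99, 131 and 107 at dawn in mutants. So 1 dusk library lay inside the dawn range, and the mutant difference was 1.22 ± 0.30 (adjusted p = 0.19, edgeR). The control minus mutant difference of Per2 did not pass over all genes (2.61 ± 0.52, adjusted p = 0.0902, edgeR). Ciart had 39, 15, 28 and 67 reads at dusk and 57, 32, 39 and 98 at dawn in mutants, overlapping (-0.57 ± 0.50), and its genotype difference had an unadjusted p of 0.000177 (adjusted p = 0.25, edgeR). Dbp, Tef and Nr1d2 had differences of 1.69 ± 0.36, 0.91 ± 0.18 and 0.81 ± 0.33 in mutants, which did not pass (adjusted p = 0.0939, 0.0794 and 0.803, edgeR). Their genotype differences had unadjusted p-values of 0.00852, 0.000827 and 0.00743 in edgeR's test and did not pass over all genes (adjusted p = 0.73, 0.413 and 0.73).

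**Figure D4:**
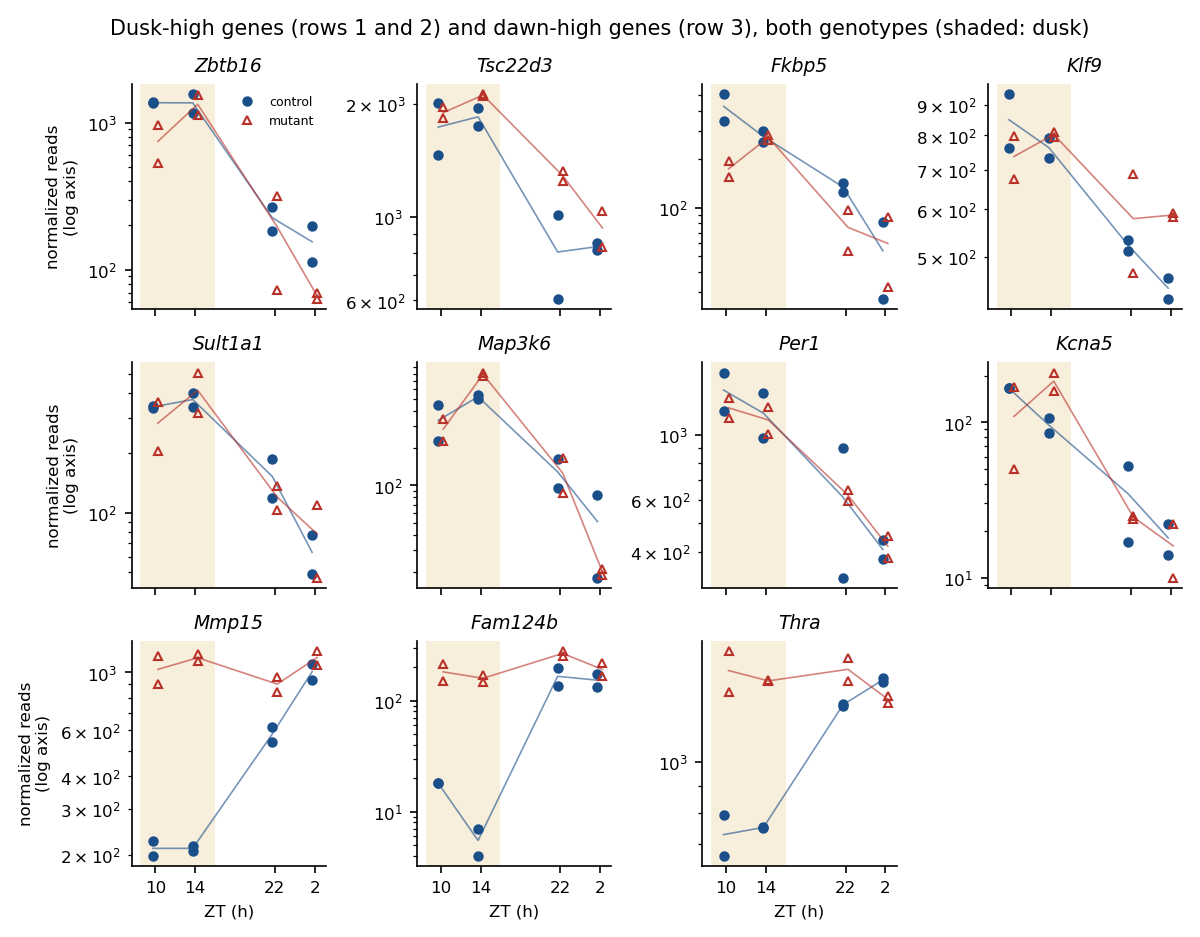
Normalized reads (y axis, log scale, a separate scale in each panel) by time point (x axis, ZT in hours, ZT2 drawn after ZT22) in control (blue circles) and mutant (red triangles) libraries, with each point 1 mouse, lines through means of 2 mice and dusk shaded. Zbtb16 and the other genes of the upper rows were called higher at dusk in both genotypes, except Klf9, which was not called in mutants. Mmp15, Fam124b and Thra are low at dusk in controls and not in mutants. Of these, Mmp15 and Fam124b passed the test of the genotype difference.

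**Figure D5:**
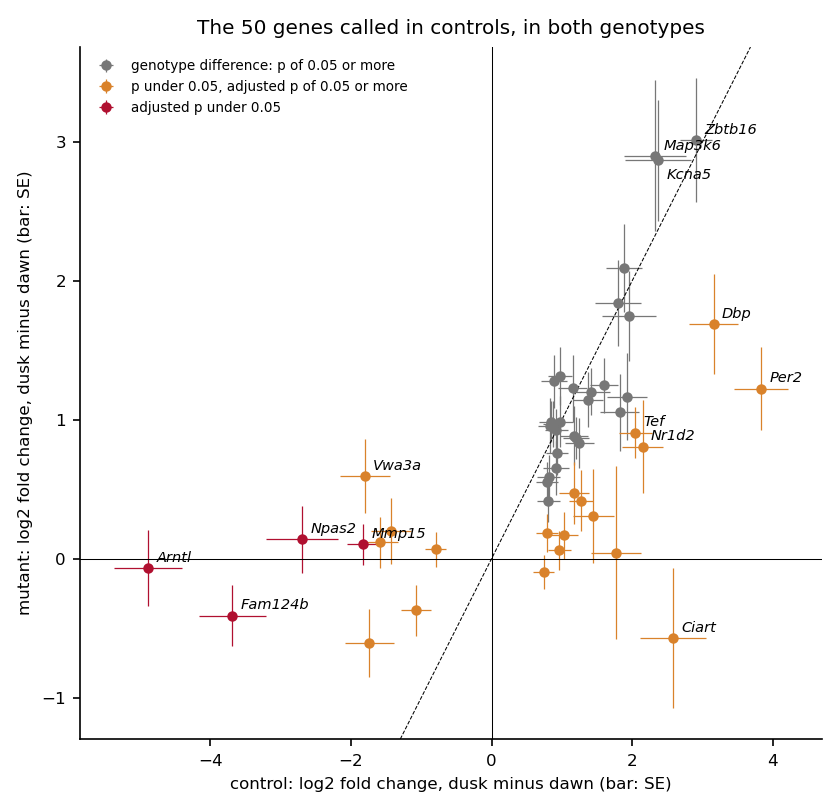
Log2 fold change between dusk and dawn in controls (x axis) and mutants (y axis) for the 50 genes called in controls, with bars for the SE, the dashed line for equal differences and colours for the test of the genotype difference. Of the 40 genes on the right, 38 lie above 0 on the mutant axis, and the 4 red genes on the left are Arntl, Fam124b, Npas2 and Mmp15.

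The calls differed in how far they rested on single mice. Leaving out 1 control library at a time left between 16 and 45 calls, the fewest without ZT2 replicate 1 or without ZT14 replicate 2. A set of 15 genes passed in all 8 of these fits, namely Zbtb16, Arntl, Per2, Dbp, Tef, Mmp15, Ccdc85a, Fam124b, Nr1d2, Cd200, Ctgf, Per3, Coro2a, Tsc22d3 and Tmc7. Klf9, Prex2, Tspan4, Trp53inp1 and Pik3ip1 passed in 0 of the 8 fits, and Abcg2, Per1, Thra, Fam107a, Kcna5, Vwa3a, Lamb1, Mal, Fbn1 and Fmo2 in 1.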

How the data were processed

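RNA of CD31-positive cells from 24 mice was sequenced with a strand-specific kit. Per the study's methods, the authors aligned the reads with STAR 2.5.3a to GRCm38, merged lanes with SAMtools 1.3.1, and deposited whole-number counts per Ensembl gene after PORT had brought the library totals close to each other (the strand setting of the counting is not given in the sources used here). Because PORT equalized the totals, the original depth is unknown, so no counting intervals are given.

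Of 53465 genes listed, the 15493 that passed the study's own filter (at least 5 reads in 6 libraries of one genotype) were tested. The counts were fitted with edgeR 4.0.16 in R 4.3.3 (TMM, quasi-likelihood test, Benjamini-Hochberg adjustment over all genes tested, threshold 0.05). The control fit held 8 libraries with the side (dusk or dawn) as its 1 term, so differences between the time points of a side count as spread. Fitted to 16 libraries, the interaction of genotype and side tested the genotype difference, and a fit of time point means tested the contrasts within a side and within an index. The SE of a log2 difference was taken from its F statistic. The steps were tested on simulated counts with less spread than these libraries have, and with changes placed only in genes with more reads. That run therefore does not tell how many true differences are found, or how many calls are false, at the spread of these data. DESeq2 1.42.0 and the other alternatives are given in the closing section. The edgeR biological coefficient of variation was 49.0%.

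The study tested 24-h rhythms and no contrast of dusk with dawn. The libraries, the 47 gene lists and the tests were chosen with earlier results of these data known. Genes were named by rule: up to 15 called genes per direction in order of p, called list members, all genes of the clock lists, 7 genes the study turns on and the member of each list with the smallest p. Some list members chosen in this way are not printed. Other called genes, Galnt15, Ddit4, Pdk4 and Slc16a1 were named after their values were seen. The result of 1 called gene is not reported here. Exons of Dbp, Ctgf, Pik3c2a, Sult1a1, Thra, Tspan4, Timp3 and Pik3ip1 overlap a gene on the other strand. Coordinates are from GENCODE (GRCm38) and promoter windows from RefSeq (84 of the 108 named genes matched). Plots were drawn with matplotlib 3.10.9.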

Additional observations from a re-analysis of the deposited data

Results flagged for a closer look

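A few differences between genotypes and several single libraries stood out. The dusk minus dawn difference of controls minus that of mutants was -4.83 on the log2 scale for Arntl, -1.94 for Mmp15, -3.28 for Fam124b and -2.84 for Npas2, each with an adjusted p under 0.05 in edgeR's test of the interaction. In the 3 genes other than Arntl the mutant libraries held high reads at both times.

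Single libraries far from the other 3 of their group were looked for in 160 groups of 4, where chance alone marks about 1 in 20, that is 8, and 6 were found. Arntl had 234 reads in ZT22 replicate 2 against 439 to 468 in the other dawn libraries. Gatm had 815 reads in ZT22 replicate 1 against 923 to 945, and Bcl2l1 had 1079 in ZT2 replicate 1 against 1335 to 1344. Sult1a1 had 402 reads in ZT14 replicate 2 against 338 to 343 in the other dusk libraries. The summed level of leukocyte and platelet markers was 311 CPM in ZT10 replicate 1 against 67.9 to 89.3 in the other dusk libraries, and that of neuron markers was 410 CPM in ZT2 replicate 1 against 206 to 237 in the other dawn libraries. The part of these libraries in the results was not tested beyond leaving each out.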

How the results depend on the processing

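The direction of the 50 control calls is fixed by dusk and dawn values that do not overlap, and is no sign of stability. Their number was 50 in the reported test, 30 without scaling beyond PORT, 169 of 22266 genes (65.7% higher at dusk against 80%) without the filter and 111 with DESeq2. A fit of all 24 libraries as 12 group means, which changed both the libraries and the model, gave 134. The number was 71 at an adjusted p under 0.1 and 72 with time point means. It was 41 with the marker level of other cell types as a covariate and 36 with the immediate-early level. Within i5 index 1 there were 18 calls and within index 2 there were 17. With the replicate block there were 39, of which 37 were among the 50, and Abcg2, Klf9, Tspan18, Timp3, Lamb1 and others lost their call. The replicate numbers were not taken as pairs, since in the 6 pairs of control time points compared same-numbered libraries deviated together with correlations of -0.02 to 0.05, and in these 8 libraries the number also separates the libraries with high Xist. Leaving out 1 library gave 16 to 45 calls (16 without ZT2 replicate 1 and without ZT14 replicate 2, 18 without ZT14 replicate 1, 23 without ZT2 replicate 2, 24 without ZT10 replicate 2, 31 without ZT22 replicate 1). Removing both ZT14 libraries, an alternative chosen after seeing the data, left 6. The causes were not tested.

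The 4 genotype differences became 8 at an adjusted p under 0.1, 69 without the filter (35 with a positive and 34 with a negative control minus mutant difference), 24 with DESeq2 (9 and 15), 5 with the replicate block and 3 to 5 with 1 library left out, with Npas2 the 1 that was lost. The 20 mutant calls became 82 with DESeq2, 18 with the block, and 0 to 51 with 1 library left out (0 without ZT2 replicate 1, ZT2 replicate 2 or ZT14 replicate 2, where 659, 826 and 754 genes had an unadjusted p under 0.05 in edgeR; 2 without ZT22 replicate 2, 4 without ZT14 replicate 1 and 51 without ZT10 replicate 2). With DESeq2 the 23 calls within dusk became 98 (68 higher and 30 lower at ZT14, against 21 and 2, with mt-Nd2 and mt-Nd6 lost) and the 1 within dawn became 17 (7 higher and 10 lower at ZT2). The depth before PORT is unknown, and with 4 mice a side and a biological coefficient of variation of 49.0%, genes that did not pass cannot be taken as equal at dusk and dawn.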

Other observations

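Beyond the groups above, the genes with the smallest p of several lists had differences that did not pass over all genes. Herpud1, a gene of endoplasmic reticulum protein disposal, had 580 to 640 reads at dusk and 343 to 454 at dawn in controls without overlap (log2 difference 0.69 ± 0.17, adjusted p = 0.157, edgeR). Bmpr2, the BMP receptor whose loss underlies pulmonary arterial hypertension, had 7683 to 9002 reads at dusk and 4993 to 6993 at dawn, also apart (0.56 ± 0.15, adjusted p = 0.291, edgeR). Cdkn1c, an inhibitor of the cell cycle, had 257 to 356 reads at dusk and 477 to 769 at dawn (-0.73 ± 0.20, adjusted p = 0.29, edgeR). Gnl3, a nucleolar GTPase, had 132 to 203 reads at dusk and 81 to 113 at dawn in controls (0.94 ± 0.28, adjusted p = 0.387, edgeR), while its mutant difference was -0.54 ± 0.28. All 4 had groups that did not overlap in controls, which was so for 4.49% of all genes tested, and each was picked as the lowest p of its list.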
